A study of Bos taurus with 2 samples.

Results

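The genes described here form the androgen synthesis chain of the Leydig cell, the cell between the seminiferous tubules that makes testosterone. All non-control probes that carried 1 of 10 gene names were taken, which gave 10 of the 32429 gene names on the bovine array, with 26 probes in 27 spots. The names are SCARB1, STAR, CYP11A1, FDX1, FDXR, CYP17A1, CYB5A, HSD3B1, HSD17B3 and HSD11B1. All of them are symbols of the RefSeq gene table of ARS-UCD2.0.

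The study set testes of crossbred bulls, with 50 to 75% exotic inheritance from Holstein Friesian, against testes of Zebu bulls of the Tharparkar breed. All bulls were adult males of 24 months. The right testis of 3 bulls per group was taken by unilateral castration, and equal amounts of RNA were pooled and hybridized to 1 array per group with Cy3. With 1 array per pool of 3 bulls there is no spread between animals, so nothing was tested, and the number of arrays limits how precise any difference is. Of the spots that are not controls, 72.0% were well above background in the crossbred pool and 74.3% in the Zebu pool.

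Leydig cells take up cholesterol from lipoproteins, carry it into the mitochondrion and cut its side chain there with electrons passed on by a reductase and a ferredoxin. The product leaves the mitochondrion and is turned into androgens by enzymes of the endoplasmic reticulum. Luteinizing hormone drives these steps, and the delivery of cholesterol to the inner mitochondrial membrane is the step it controls most quickly.

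Values are log2 of the processed signal minus the 75th percentile of the array, and every difference is crossbred minus Zebu. For each gene the brightest probe, by the mean of these values over both arrays, gives its reading, and the gene was counted as lower or higher at a difference of 1.5 or more in size. The error printed with a difference is the scanner software's own error of the signals. Spots of the same probe gave a pooled SD of 0.33 for a difference, the replicate spot SD used below, over 5960 probes with several spots. The median SD of these probes was lower, 0.10. Neither the scanner software's error nor the spot SD covers labelling, pooling or animals. A probe was called well above background as the scanner software marked it, and where only 1 array passed, a bound is given in place of a fold. A probe that did not pass on an array is called dim there, and counts as lower or higher by its measured difference, not by its bound. A probe that passed on 1 array only did so through the pool where it is brighter, so its direction is no further reading of a gene. That bound sets the brighter value against the dim probe's own value or the lowest value well above background on that array, whichever is higher.

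By its brightest probe, each of 9 genes out of 10 could be read in both pools, while HSD11B1 could be read in neither. Among the 9, 2 were lower in crossbred testis by 1.5 or more, CYP17A1 and HSD3B1, and 0 were higher. Over all 24751 detected transcripts, 2.92% were lower and 7.12% were higher by the same rule. The share lower was 1.74% with only probes read on both arrays, as the 9 genes are. It was 0.683% after normexp background correction of the mean spot signal, with an offset of 50, in place of the processed signal. The same 2 genes were lower in each. The differences of the 9 genes ran from -1.77 to 0.93 with a median of -0.57, while the median over all detected transcripts was -0.05. Below 0 were 6 of the 9 genes, against 52.8% of all detected transcripts. In testis RNA, fewer Leydig cells and less RNA per Leydig cell cannot be told apart.

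**Figure D1:**
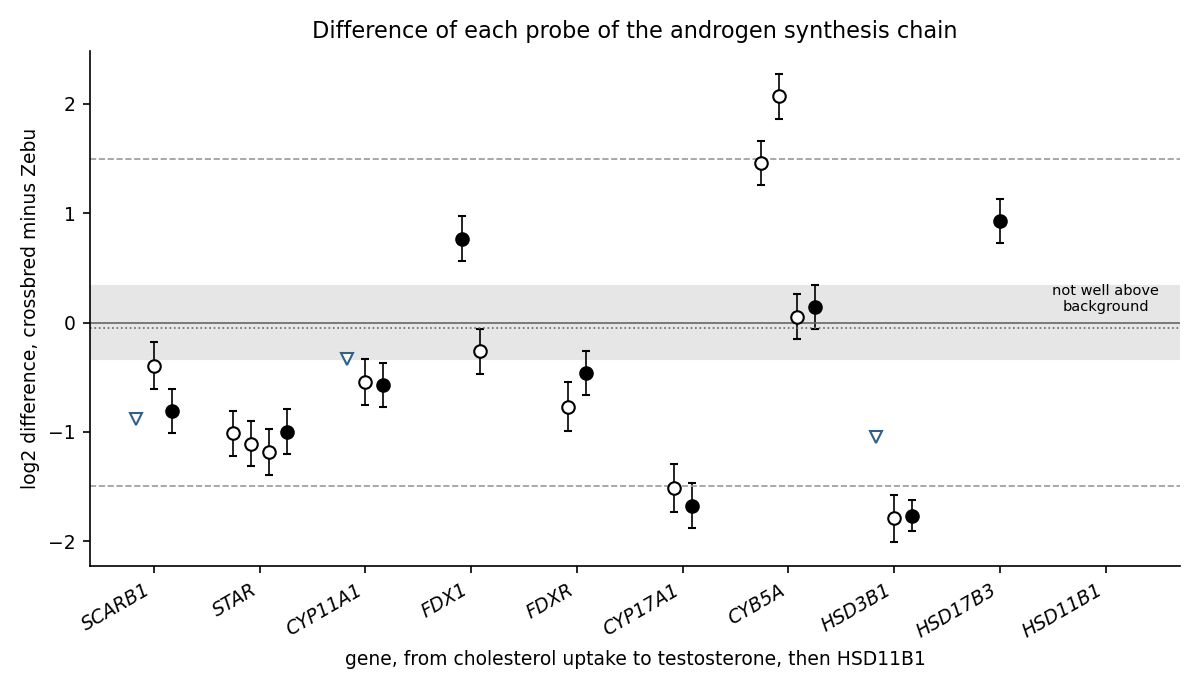
Log2 difference (crossbred minus Zebu) of each probe by gene in the order of the steps, with filled circles for the brightest probe, open circles for other probes read in both pools, triangles for bounds, bars for the scanner software's error, a grey band for the replicate spot SD of 0.33, dashed lines at 1.5 and a dotted line at the median of all detected transcripts. CYP17A1 at -1.68 and HSD3B1 at -1.77 lie lowest, and the probes of CYB5A run from 0.05 to 2.07.

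SCARB1 is the receptor that takes up cholesterol esters from high-density lipoprotein. Its brightest probe read 2.44 in the crossbred pool against 3.25 in the Zebu pool. The difference was -0.81 with an error of 0.20, or 1.75-fold lower. A second probe had -3.43 and -3.04, a difference of -0.39. The last probe, dim in the crossbred pool, was at least 1.85-fold lower. The 2 probes read in both pools therefore lay on the Zebu side, and neither reached 1.5.

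STAR moves cholesterol to the inner mitochondrial membrane. Its brightest probe read 2.42 in the crossbred pool against 3.41 in the Zebu pool. The difference was -0.998 with an error of 0.20. The other 3 probes differed by -1.01, -1.11 and -1.19. The 4 probes had an SD of 0.09 between them, below the median of 0.30 over the 813 gene names with 4 probes on both arrays. A pair of them shares 44 of their 60 bases and so does not count as 2 separate readings, although this SD counts both. The first 30 bases of this pair are shown because their overlap is what makes them 1 reading, with the stretch common to both 30-base pieces in capitals and the coordinates of the whole probe, as in each sequence line.
STAR probe from base 1273, chr27:35540511-35540570, minus strand, HGSC Btau_3.1: gacagcgtctacctaaAAATATCTTGAAAA
STAR probe from base 1289, chr27:35540495-35540554, minus strand, HGSC Btau_3.1: AAATATCTTGAAAAtgctaccagttaagga
These 2 probes differed by -1.01 and -1.11, less than the replicate spot SD apart. No other probe on the array shared 20 or more bases in a row with any of the 26 probes.

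CYP11A1 cuts the side chain of cholesterol and gives pregnenolone, the first steroid of the chain. Its brightest probe read -0.41 in the crossbred pool against 0.17 in the Zebu pool, which is -0.57 with an error of 0.20. A second probe differed by -0.55, and a dim one was at least 1.26-fold lower. The 2 probes read in both pools thus lay on the Zebu side and differed from each other by less than the replicate spot SD, while the measured difference of the dim one, -0.34, is within its error of 0.41.

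The electrons for CYP11A1 come from FDXR, the reductase, through FDX1, the ferredoxin. FDXR read 1.69 and 2.15 in its brightest probe, which is a difference of -0.46. The remaining probe of FDXR gave -0.77. FDX1 went the other way in its brightest probe, with 2.20 in the crossbred pool against 1.44 in the Zebu pool, which is 0.77 with an error of 0.20. Its other probe, 640 bases further along the transcript, read -1.46 and -1.20, a difference of -0.26. The probes of FDX1 thus had opposite signs and lay 1.03 apart, so the direction of the gene depends on the probe.
FDX1 probe from base 677, first 30 bases, chr15:18555330-18555389, plus strand, HGSC Btau_3.1: gccagagagtccattgatatgggcatgaac
FDX1 probe from base 1317, first 30 bases, chr15:18555972-18556031, plus strand, HGSC Btau_3.1: ctgtgacagaatggatatcttacggattag
Both are printed because their readings disagree. Of the 4758 gene names with 2 probes on both arrays, 11.2% had probes at least as far apart.

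HSD3B1 oxidizes the hydroxyl group of pregnenolone and related steroids and shifts their double bond, which turns them into the forms that lead to testosterone. It showed the lowest difference of the 9 genes. Its brightest probe was spotted at 2 places and gave signals of 1619 and 1603 on the crossbred array, against 5493 and 6026 on the Zebu array. On the log2 scale the probe read 0.45 and 2.22, a difference of -1.77 with an error of 0.14, or 3.41-fold lower. The spots taken singly differed by -1.69 and -1.84, less than the replicate spot SD apart.
HSD3B1 probe from base 723, chr3:25720915-25720974, minus strand, HGSC Btau_3.1: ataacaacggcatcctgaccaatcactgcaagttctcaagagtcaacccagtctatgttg
HSD3B1 probe from base 213, chr3:25724932-25729613, minus strand, HGSC Btau_3.1: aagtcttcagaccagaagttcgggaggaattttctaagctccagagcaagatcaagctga
These 2 probes are shown because they read the same transcript elsewhere and do not overlap the brightest one. The probe from base 723 read -3.82 and -2.02, a difference of -1.79. The probe from base 213, dim in the crossbred pool, was at least 2.06-fold lower, and its coordinates span more than its 60 bases. The 2 probes of HSD3B1 read in both pools thus lay on the Zebu side, 0.03 apart.

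CYP17A1 adds the 17-alpha hydroxyl group and then cuts the bond that leaves an androgen. Its brightest probe gave a signal of 4674 in the crossbred pool and 15653 in the Zebu pool. This is a normalized log2 signal of 1.99 against 3.67, a difference of -1.68 with an error of 0.20, or 3.19-fold lower. Its other probe, whose sequence is shown because it is the only second reading of the gene, lies on an unplaced contig of HGSC Btau_3.1, as does the brightest.
CYP17A1 probe from base 1017, unplaced contig, bases 14699 to 14758, minus strand, HGSC Btau_3.1: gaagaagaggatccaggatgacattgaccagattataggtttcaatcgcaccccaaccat
That probe read -3.59 and -2.07, a difference of -1.51 with an error of 0.22, or 2.86-fold lower. It passed 1.5 by less than its error.

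The crossbred array has a dark patch of 544 spots with a median difference of -1.37 and a bright patch of 105 spots with a median of 1.29, so the place of each spot was looked up. Of the 27 spots of the chain, 0 lay in either patch. The brightest probe of CYP17A1 was the closest to one, in row 51 and column 44, 3 rows from the edge of the dark patch. Among the 18 spots nearest to it, the 12 read in at least 1 pool had a median difference of -0.16, the lowest of them was -1.33 and 0 were lower by 1.5. The other probe of CYP17A1 lay in row 370 and column 9, and of its 12 such neighbours, with a median of -0.20, 1 was lower by 1.5. Over all 27 spots of the chain, the medians of such neighbours ran from -0.42 to 0.28. The lowest was beside 1 spot of the brightest probe of HSD3B1, and beside its other spot the median was -0.07. Among only the 6 nearest spots, of which 2 to 6 could be read, the medians ran from -1.09 to 0.95. They were -0.90 and -1.09 beside the SCARB1 probes with -0.81 and -0.39, -0.57 beside the brightest probe of CYP11A1 with -0.57, and 0.95 beside the CYB5A probe with 2.07. Some had the opposite sign to their probe, with 0.59 beside the FDXR probe with -0.46 and -0.46 beside the HSD17B3 probe with 0.93. The dim probes of SCARB1 and CYP11A1, lower in crossbred testis, had 0.56 and 0.49 beside them. Beside the brightest probe of CYP17A1 this median was -0.15, and beside the spots of the brightest probe of HSD3B1 it was 0.04 and 0.24.

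**Figure D2:**
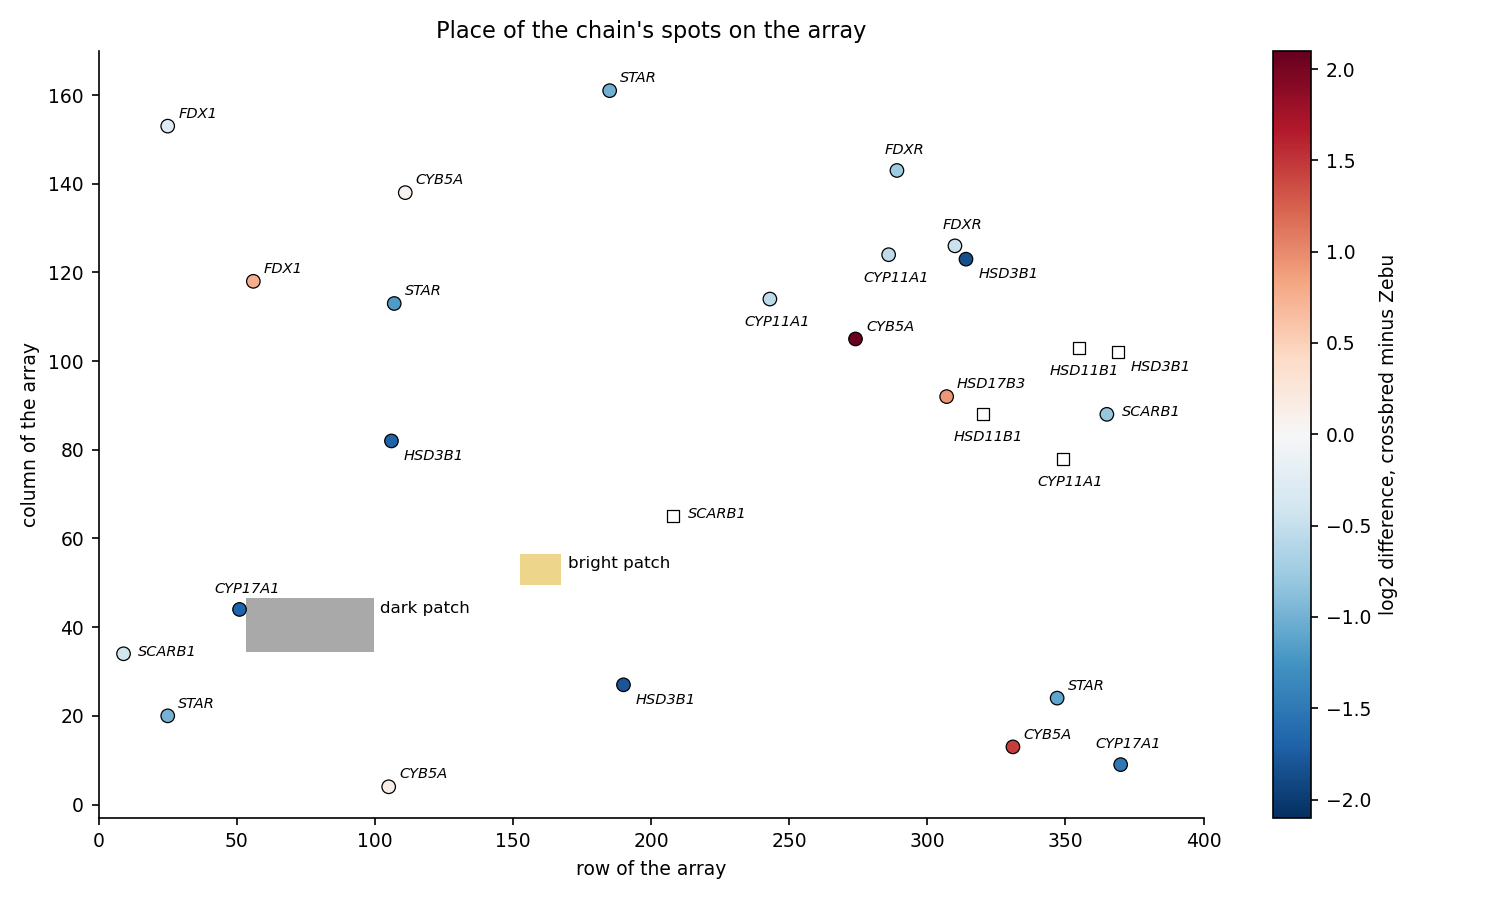
Place of the 27 spots of the chain by row and column of the array, coloured by the log2 difference (crossbred minus Zebu), with both patches as boxes and white squares for spots dim in at least 1 pool. The spots are spread over the array, 0 lie in a patch, and 1 spot of CYP17A1 lies 3 rows from the dark patch.

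CYB5A is the cytochrome b5 that aids the bond cleavage by CYP17A1. Its 4 probes gave 2 different pictures. The probe from base 2025, the brightest, read 3.45 in the crossbred pool against 3.31 in the Zebu pool, a difference of 0.14, and the probe from base 1874 read 1.32 and 1.26, a difference of 0.05. Both lay within the replicate spot SD of 0. The probes nearer the start of the transcript were higher in crossbred testis. The probe from base 673 read 3.14 and 1.07, a difference of 2.07 with an error of 0.20, or 4.20-fold higher, and the probe from base 280 read 0.72 and -0.74, a difference of 1.46.
CYB5A probe from base 280, chr24:4080135-4080194, plus strand, HGSC Btau_3.1: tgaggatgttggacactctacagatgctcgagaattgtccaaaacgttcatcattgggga
CYB5A probe from base 673, first 30 bases, chr24:4088282-4088341, plus strand, HGSC Btau_3.1: tgaacttctaaagtgtgccttcttattcac
CYB5A probe from base 1874, first 30 bases, chr24:4089251-4089310, plus strand, HGSC Btau_3.1: acgagccacggcattcatcagaaatatcta
CYB5A probe from base 2025, first 30 bases, chr24:4089402-4089461, plus strand, HGSC Btau_3.1: ggaggtgtctgtatcacatgggaaaatgcc
The 4 are printed so that the places they read can be found. They had an SD of 0.99 between them, and 5.90% of the 813 gene names with 4 probes on both arrays were spread as far. By the brightest probe CYB5A was not counted as higher, and by the mean of its probes it differed by 0.93.

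Across the chain, the first and the last probe of a transcript lay furthest apart in CYB5A and FDX1 and closer in the other genes. With 2 probes, as in FDX1, the place of a probe cannot be told apart from the probe itself. The first probe minus the last differed by 1.32 in CYB5A and by 1.03 in FDX1. It differed by 0.42 in SCARB1, 0.16 in CYP17A1, 0.03 in CYP11A1, -0.02 in STAR, -0.03 in HSD3B1 and -0.31 in FDXR. Over 7740 transcripts with at least 2 probes on both arrays the median was 0.07, and 9.15% reached 1 or more while 2.82% reached -1 or less. The RNA was labelled from the poly(A) tail, and the part that distance from it has in these values was not tested.

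**Figure D3:**
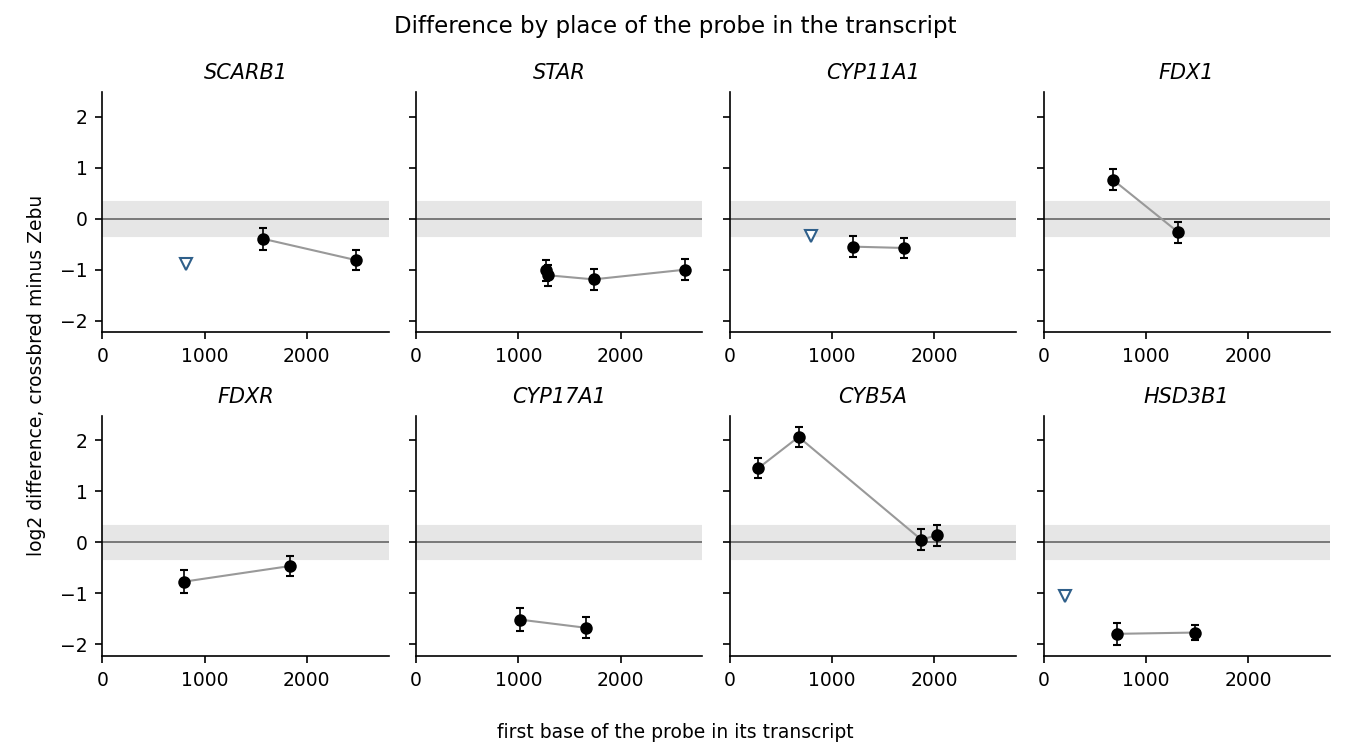
Log2 difference (crossbred minus Zebu) of each probe against its first base in the transcript, for the 8 genes with at least 2 probes read in both pools, with circles for probes read in both, triangles for bounds, bars for the scanner software's error and a grey band for the replicate spot SD. STAR, CYP11A1, CYP17A1 and HSD3B1 are level along the transcript, while CYB5A and FDX1 are higher near the start.

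HSD17B3 reduces androstenedione to testosterone, the last step. Its single probe read 0.85 in the crossbred pool against -0.08 in the Zebu pool. The difference was 0.93 with an error of 0.20, or 1.90-fold higher. It was thus on the crossbred side by more than the replicate spot SD, but with 1 spot there is no second reading.
HSD17B3 probe from base 1386, first 30 bases, chr8:87137949-87138008, minus strand, HGSC Btau_3.1: ttgtagtagttcttgagtagtcactggttc
The first 30 bases of it are shown because the whole value of the gene rests on this probe. HSD11B1, which converts glucocorticoids between their active and inactive forms in Leydig cells, had 2 probes, and neither was well above background on either array. Their signals were 22.9 and 8.77 in the crossbred pool and 15.1 and 16.5 in the Zebu pool, and no fold is given.

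**Figure D4:**
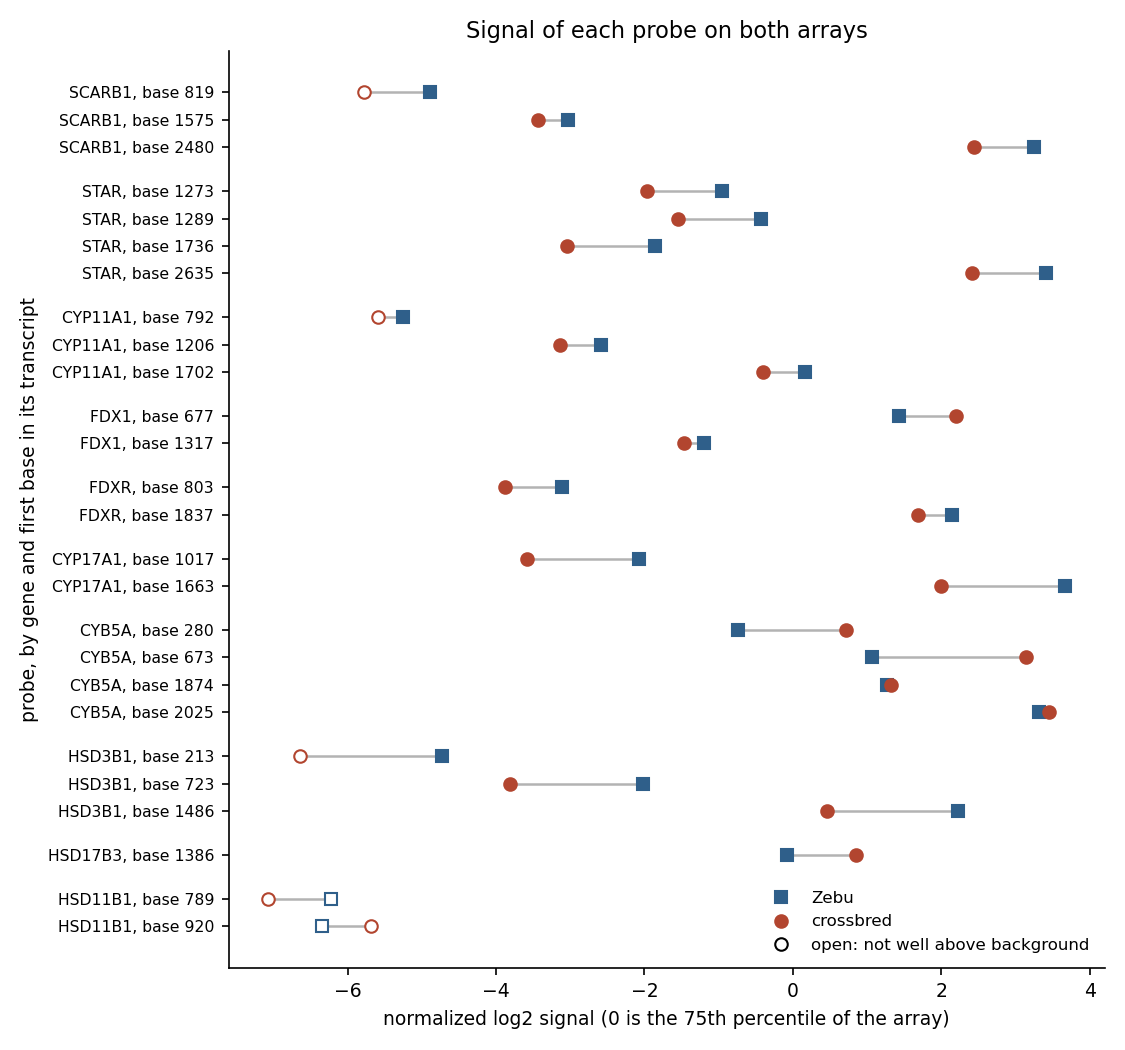
Normalized log2 signal of the 26 probes in the crossbred pool (circles) and the Zebu pool (squares) by gene and first base in the transcript, with open symbols where not well above background. Each probe of SCARB1, STAR, CYP11A1, FDXR, CYP17A1 and HSD3B1 that was read in both pools is lower in the crossbred pool, and levels of different probes cannot be compared.

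In the order of their differences, HSD3B1 and CYP17A1 were 0.09 apart, and STAR followed 0.68 above CYP17A1. The SD of such a gap from the pooled SD of replicate spots is 0.47, which holds spot noise only and is no test between genes. With the lower median SD of replicate spots it would be smaller. The gap of HSD3B1 and CYP17A1 is within it. That of CYP17A1 and STAR is larger for the brightest probes, but other probes of these genes, with -1.51 for CYP17A1 and -1.19 for STAR, lie closer together than this SD. STAR, SCARB1, CYP11A1 and FDXR, from -0.998 to -0.46, lay within that SD of their neighbours among these 4. CYB5A stood 0.60 above FDXR, FDX1 stood 0.63 above CYB5A, and HSD17B3 was 0.16 above FDX1. These gaps hold for the brightest probes only. Counted by probe, 24 of the 26 could be read in at least 1 pool and 21 in both. Lower by 1.5 or more were 5 of the 24, all of CYP17A1 and HSD3B1, against 2.99% of all detected probes, and 1 of them is the dim probe of HSD3B1, counted by its measured difference of -1.91 although its bound is 2.06-fold. Higher was 1, of CYB5A, against 6.14% of all detected probes. Among transcripts with a mean normalized log2 signal of 0 or more, where the brightest probes of 8 of the 9 genes lie, 0.783% were lower by 1.5.

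Markers of the Leydig cell outside the chain lay on the Zebu side as well. All 9 were read on both arrays and all 9 lay below 0, against 52.8% of all detected transcripts. Their median was -0.75, and their summed level went from 6.83 on the Zebu array to 6.36 on the crossbred array on the log2 scale. Such a sum adds signals of different probes, so bright probes weigh most in it, and it does not compare the genes of a list. Their brightest gene was INSL3, an insulin-like hormone of these cells, with 6.25 and 6.69, a difference of -0.44. TCF21, with -1.61, was the only one past 1.5, and LHCGR, the luteinizing hormone receptor, was nearest 0 with -0.10 and a single probe of 4 above background. PDGFRA, PTCH1, NR2F2 and DLK1 gave -1.08, -1.04, -1.03 and -0.75, while NR5A1 and VCAM1 gave -0.42 and -0.37. How far each marker is confined to Leydig cells was not tested, and the peritubular markers given below had a median of -0.77. By their brightest probes, both CYP17A1 and HSD3B1 had a lower difference than each of these 9 markers, though by less than the replicate spot SD from TCF21. The other probe of CYP17A1, with -1.51, lay above TCF21. STAR, SCARB1, CYP11A1 and FDXR lay among the markers, and FDX1, CYB5A and HSD17B3 lay above all 9, again by the brightest probes. The other probe of FDX1, with -0.26, lay below LHCGR. What part the number of Leydig cells has in the differences of the chain was not tested. Of these markers, 5 are also on the list of control genes given further on.

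Markers of other cells differed too, and their part in the values of the chain was not tested. All 13 spermatid markers were above 0, and 9 of them were higher by 1.5, against 7.12% of all detected transcripts. Their median was 1.74, and their summed level was 9.60 in the crossbred pool and 8.44 in the Zebu pool, with PRM1 the brightest. SPEM1 differed most with 2.92, then TSSK6 with 2.77, ODF1 with 2.13, OAZ3 with 1.98, PRM2 with 1.88, PRM3 with 1.86, TNP2 with 1.74, AKAP4 with 1.71 and ACRV1 with 1.64, and PRM1 differed least with 0.36. All 8 spermatocyte markers were above 0, from 0.14 for HORMAD1 to 1.04 for DMC1, with a median of 0.41 and a summed level of 5.52 against 5.14, and TEX101 was the brightest. Of the 8 spermatogonium markers 6 were below 0, with a median of -0.80, values from -1.65 for SALL4 to 0.59 for STRA8 and a summed level of 4.95 against 5.45, with UCHL1 the brightest. The germ cell lists thus went both ways.

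Among the somatic lists, the Sertoli and the peritubular markers were mostly on the Zebu side, and the endothelial and macrophage markers were not. Sertoli markers had a median of -0.49 over 11 of 12 genes on the array, INHBB not being above background, from -1.53 for DHH to 1.36 for GATM, with a summed level of 7.57 against 8.17 and CLU the brightest, while GATA1, dim in the Zebu pool, was at least 1.5-fold higher as a bound and past 1.5 in its measured difference. The other probes of GATM gave 0.02 and -0.44. By their brightest probes, all 8 peritubular and smooth muscle markers lay below 0, from -1.02 for DES to -0.38 for ACTG2, with a median of -0.77, a summed level of 5.39 against 6.17 and ACTA2 the brightest. Other probes lay above 0 in TPM2, with 2.29 against -0.78 for its brightest, and in ACTG2, with 0.14. Endothelial markers had a median of 0.05 over 8 genes, from -0.38 for KDR to 1.33 for CLDN5, their brightest, with a summed level of 2.52 against 1.57 that rests mainly on CLDN5, and TIE1, dim in the crossbred pool, was at least 2.09-fold lower. Macrophage markers had 0.13 over 7 genes, from -0.19 for CSF1R to 1.95 for AIF1, with a summed level of 4.81 against 4.26 and C1QA the brightest, while CD163 was dim in the crossbred pool and has no fold. The median of the chain, -0.57, thus lay between those of the Sertoli and the Leydig markers.

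Blood and adrenal markers were few. Of the 6 red blood cell markers on the array 3 were read, with HBA at -2.15, HBM at 0.33, a median of 0.09 and a summed level of 0.05 against 1.49, HBA being the brightest, and HBB, ALAS2 and SLC4A1 were not well above background. The adrenal cortex markers had a median of 0.25 over 4 of 5 genes, from 0.01 for CYP11B1, their brightest, to 0.86 for CYP21A2, with a summed level of 0.98 against 0.95, and MC2R was not well above background. Only 1 of the 3 probes of CYP11B1 was well above background, with 0.88 and 0.87, and it weighs most in that sum.

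**Figure D5:**
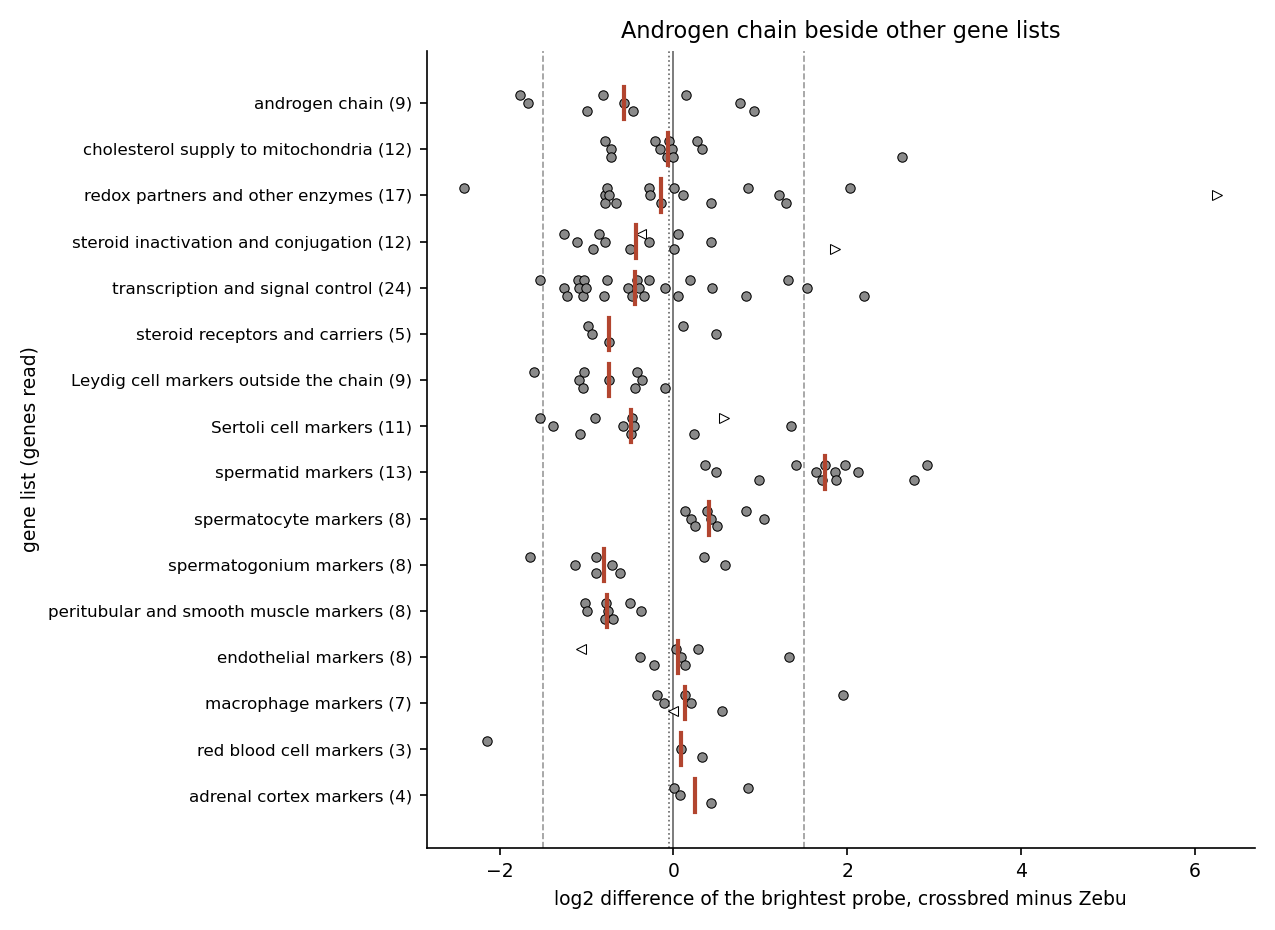
Log2 difference (crossbred minus Zebu) of the brightest probe of each gene read, by list, with circles for genes read in both pools, triangles for bounds, red bars for list medians, dashed lines at 1.5 and a dotted line at the median of all detected transcripts. The median of the chain is -0.57, and the spermatid markers lie highest with a median of 1.74.

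Before the chain, cholesterol has to be freed from stores and brought to the mitochondrion. Of the 12 genes read on this list 9 were below 0, 1 was higher by 1.5 and 0 were lower, with a median of -0.06. Over all detected transcripts 2.92% were lower and 7.12% higher. Such small counts, here and on the next lists, cannot be set apart from these shares. The higher gene was LIPE, the hormone-sensitive lipase that frees cholesterol from its esters, which read 2.03 and -0.60, a difference of 2.63, with 1.84 and 1.97 in its other probes. From which cells of the testis the signal of LIPE comes was not tested. NPC2, a cholesterol carrier of the lysosome, had the lowest difference with -0.79.

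Beside the chain stand the other enzymes of steroid synthesis and their redox partners, with a median of -0.15 over 17 of 18 genes (H6PD not being above background), 1 lower and 2 higher. HSD17B7 had the lowest difference, -2.41, but its spot lies in the dark patch, its nearest spots had a median of -2.79 and its other probe differed by -1.37. SRD5A1, which turns testosterone into dihydrotestosterone, differed by 2.03 in its brightest probe and by 0.26 in the other. CYP19A1, the aromatase that turns androgens into estrogens, was at least 76.5-fold higher by 1 of its 5 probes, whose nearest spots had a median of 0.95. Its only other probe above background differed by 0.03. HSD17B7, SRD5A1 and CYP19A1 thus each have a probe short of 1.5. HSD17B1, the brightest gene of this list, read 4.40 in the crossbred pool and 3.11 in the Zebu pool, a difference of 1.29. Another of its probes differed by 2.49. Its last probe, dim in the Zebu pool, was higher in the crossbred pool with a bound of 1.31 on the log2 scale.

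Enzymes that inactivate or conjugate steroids had a median of -0.43 over 12 of 15 genes, 0 lower and 1 higher. SULT2A1, a sulfotransferase, differed by -1.26 and SULT1E1 by 0.43. CYP1B1, dim in the Zebu pool, was at least 3.62-fold higher. Steroid receptors and carriers had a median of -0.74 over 5 of 7 genes, from -0.98 for NR3C2 to 0.49 for PGR. The estrogen receptor ESR1 was not well above background in its brightest probe, while another of its 4 probes, 3 rows from the bright patch, was read in the crossbred pool only.

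Genes that control steroid synthesis in Leydig cells had a median of -0.45 over 24 genes read, with 17 below 0, 1 lower and 2 higher by 1.5. Over all detected transcripts 52.8% were below 0, 2.92% lower and 7.12% higher. DHH, a Sertoli cell signal to Leydig cells, differed by -1.53. NR5A2, a nuclear receptor close to NR5A1, differed by 2.19, and CREM, a factor of the cAMP response that spermatids use, by 1.54. The median of this list was 0.13 above that of the chain.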

How the data were processed

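What the authors deposited is scanner output of Agilent Feature Extraction 11.5.1.1, whose processed signal is an intensity that was background-subtracted and detrended per the file headers, with the mean spot and local background intensities and a log2 value table shifted to the 75th percentile. The columns of that table had medians of -3.00 and -3.01, and its differences were within 0.01 of those used here for 98.0% of 51279 probes.

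Log2 processed signals were averaged over the spots of a probe, without 13 outlier spots, and the 75th percentile over non-control probes was subtracted (signals of 1176 crossbred, 1233 Zebu). The median signal was 126 and 129 over a local background of 34 and 35.5, and no spot was saturated. The lowest values well above background were -5.78 and -5.94. Members and lists were chosen with earlier results of these data known. Named are the 10 genes, the largest fall and rise on each other list among genes read on both arrays, every gene past 1.5, and some others beside them. Alternatives covered background correction, scaling, value source, probe choice, patches, filters, outliers and thresholds. Steps were tested on simulated data. Python 3.11.15, numpy 2.4.6, pandas 2.3.3, R 4.3.3 and limma 3.58.1 were used. Control spots were left out, and 1 gene of the receptor list is not reported here.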

Additional observations from a re-analysis of the deposited data

How the results depend on the processing

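The counts of 2 genes lower and 0 higher were the same under 12 of the 13 alternatives, in each of which the lower genes were CYP17A1 and HSD3B1. With a linear fold of 1.5 in place of a log2 difference of 1.5 the counts were 4 lower (SCARB1 and STAR added) and 2 higher (FDX1 and HSD17B3), where 22.2% and 21.4% of all transcripts were lower and higher. At a log2 difference of 1, STAR was short of the count with -0.998. This depends on the scaling, since STAR was at -1.002 with the deposited log2 values and at -1.09 after quantile normalization. After normexp it was at -0.96. The median of the chain stayed between -0.62 and -0.48, and the largest shift of the median of all transcripts was 0.04, without the filter on dim probes. Of 99 values of single genes, 95 moved by less than the replicate spot SD and 0 changed sign. The other 4 were the mean and the median over all probes, which gave 0.25 for FDX1 in both and 0.93 and 0.80 for CYB5A. Most of the 99 are no check, since their settings could hardly move a gene. Using probes read on both arrays, no filter or kept outliers left each value as it was. Other shifts of the whole array, the deposited values and leaving out the patches moved all genes by nearly the same small amount. Only normexp, quantile normalization and the mean and median over all probes could move genes apart. The unchanged counts carry the same limit. Among all transcripts, the number lower was 722, but 398 with probes read on both arrays. It was 169 (with 1030 higher in place of 1762) after normexp with an offset of 50 on the mean spot signal. With dim sides at their bound, it was 450 for the mean of all probes read in at least 1 pool and 437 for the median of all probes. It was 2196 (3173 higher) at a log2 difference of 1 and 5504 (5290 higher) at the fold of 1.5. The cause of the first 4 was not tested. A dim probe's value is a bound, but it is counted by its measured difference, except in the mean and the median over all probes, which use the bound. No paired analysis was possible because each group has 1 array.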
